A study of Mus musculus with 6 samples.

Results

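Iron uptake, storage and export was followed through 8 genes: Tfrc, Steap3 and Slc11a2 for uptake, Fth1 and Ftl1 for storage, Slc40a1 for export, and Aco1 and Ireb2, which encode the iron regulatory proteins. They were chosen by gene name, and each name matched 1 row of a deposited table of 54433 genes. The libraries came from the MC3T3-E1 line of mouse osteoblast-like cells. The 3 WT libraries are from the wild-type line in Dulbecco's modified Eagle medium, labelled as controls. The 3 FR libraries are from cells of the same line that had become resistant to 30 ppm fluoride through a stepwise exposure whose protocol names a gradient of 10 ppm. The series title names fluoride-tolerant mice as the source instead, and the sample labels are followed here. The FR samples are labelled as exposed to fluoride, so resistance and exposure cannot be told apart. Both groups share the medium, fetal bovine serum and antibiotics, and the labels name no iron treatment. The protocol mentions further clones without saying how many gave the FR cells, and no label tells if the libraries of one group are separate cultures, so p-values here measure only the spread between libraries.

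Most cells take up iron bound to transferrin. The transferrin receptor carries it into endosomes, a STEAP reductase converts ferric to ferrous iron, and a divalent metal transporter moves it into the cytosol. Iron that is not used is stored in ferritin, a shell of heavy and light chains, or leaves the cell through ferroportin. When iron is scarce, the 2 iron regulatory proteins bind hairpins called iron-responsive elements: in the 5′ untranslated region they block translation, and in the 3′ untranslated region of the transferrin receptor mRNA they protect the mRNA from decay. Ferritin and ferroportin are therefore controlled in part at translation, which RNA counts do not measure.

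The hairpins of the members are shown because they set apart the mRNAs that these proteins bind. GENCODE M21 transcripts (build GRCm38) were searched for a bulged C, 5 bases, the loop CAGTGN and 5 bases that pair with the first 5, with at least 2 of 5 pairs in the lower stem and G-T pairs allowed. A site of 27 bases of this form lay in an untranslated region of 4 of the 8 members, and in 91 of 21901 protein-coding genes (0.416%). The pattern describes the iron-responsive element, which ferritin, ferroportin and transferrin receptor mRNAs were already known to carry. The count for the members was thus fixed in advance and is not a test of enrichment. The sites run 5′ to 3′ on the transcript, and capitals mark the bulged C and the loop.
Fth1 (transcript of 929 bases, 5′ region, bases 88 to 114): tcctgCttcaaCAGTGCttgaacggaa
Ftl1 (transcript of 968 bases, 5′ region, bases 79 to 105): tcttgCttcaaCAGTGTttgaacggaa
Slc40a1 (transcript of 3370 bases, 5′ region, bases 91 to 117): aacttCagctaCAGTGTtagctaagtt
Tfrc (transcript of 4890 bases, 3′ region, bases 3316 to 3342): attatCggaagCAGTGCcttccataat
Tfrc (transcript of 4890 bases, 3′ region, bases 3695 to 3721): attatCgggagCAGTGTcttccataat
Tfrc (transcript of 4890 bases, 3′ region, bases 3760 to 3786): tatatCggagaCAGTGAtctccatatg
Tfrc (transcript of 4890 bases, 3′ region, bases 3807 to 3833): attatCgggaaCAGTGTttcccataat

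With 1 unpaired base allowed in the downstream arm, a form found in the untranslated regions of 218 genes (0.995%), the search added 1 site of 28 bases in a member. It begins after a gap of 32 bases from the stop codon of the Slc11a2 transcript of 4415 bases. The other long Slc11a2 transcript, of 3025 bases, has no match to either form. The match to the form with 1 unpaired base is likewise not a test of enrichment.
Slc11a2 (transcript of 4415 bases, 3′ region, bases 1798 to 1825): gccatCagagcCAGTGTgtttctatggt
Aco1, Ireb2 and Steap3 had no match in any transcript searched. A match is a run of letters that can fold, and binding was not measured.

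**Figure D1:**
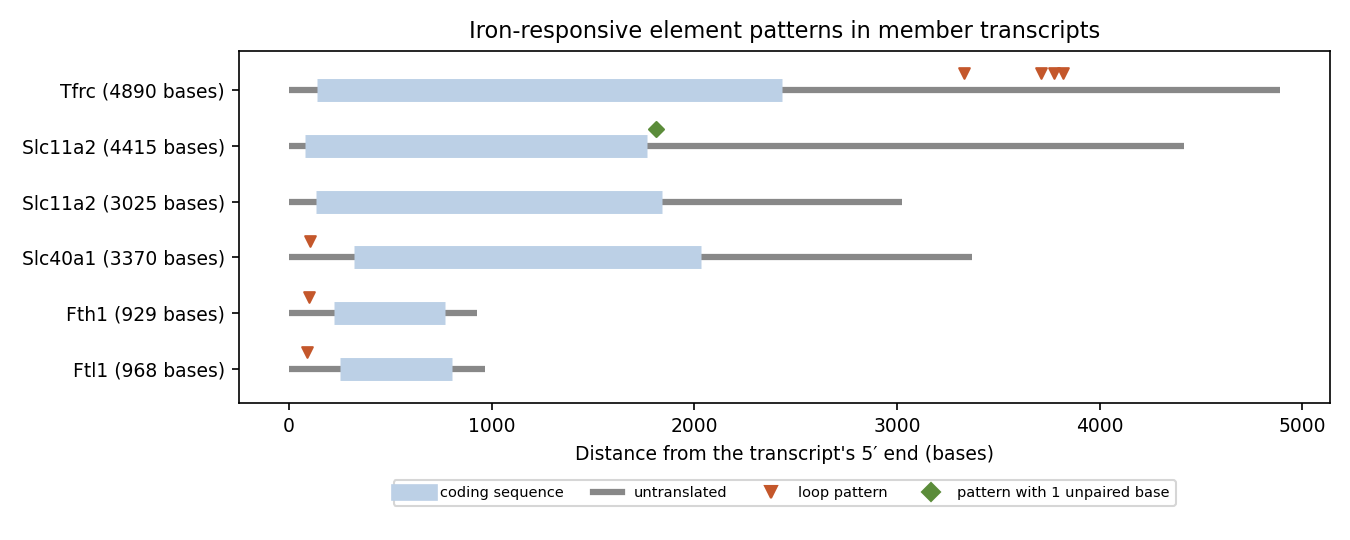
Position of the hairpin patterns in 6 GENCODE transcripts of 5 members, as distance in bases from the 5′ end of the transcript, with the coding sequence as a thick bar. Triangles mark the strict pattern and the diamond the form with 1 unpaired base. The ferritin and Slc40a1 sites lie before the coding sequence, the 4 Tfrc sites and the site of the 4415-base Slc11a2 transcript after it.

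In FR 2 of the 3 genes of transferrin iron uptake, Tfrc and Steap3, were about 2-fold higher, while the other one, Slc11a2, was lower. Both ferritin genes were higher by smaller amounts, Ireb2 was higher and Aco1 slightly lower. The exporter gene Slc40a1 was low in both groups, with 18 to 39 counts in a library. Of the 8 genes 5 rose, 2 fell and 1 did not pass the test. Over all 14889 genes tested with edgeR, 70.1% passed at an adjusted p under 0.05, 34.6% higher and 35.5% lower, so 7 of 8 called is near the background. The median log2 fold change was 0.20 for the 8 genes and 0.00 for all tested genes. CPM, counts scaled to library size with TMM factors, did not overlap between the groups for 7 of the 8 genes, against 72.4% of all tested genes. In bulk RNA, fewer cells of a kind and less RNA per cell cannot be told apart.

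**Figure D2:**
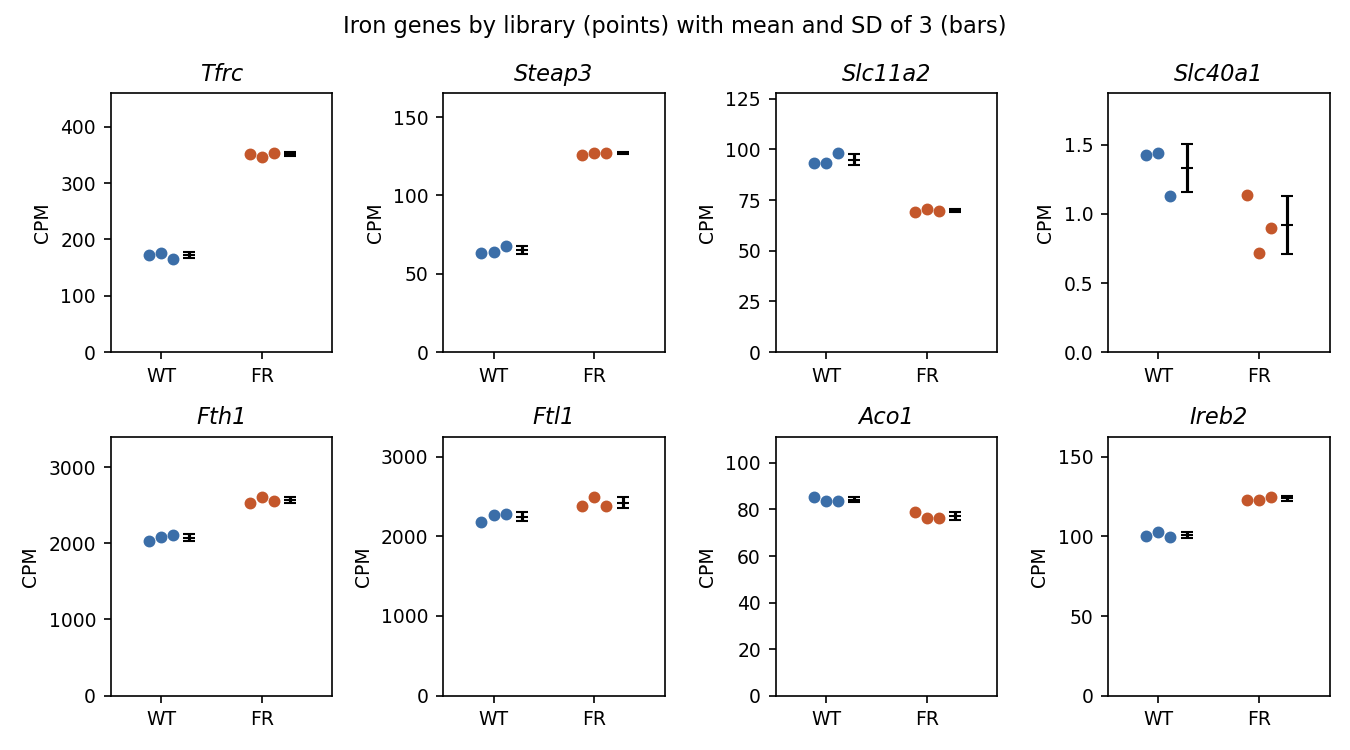
CPM of each of the 8 genes in the 3 WT and 3 FR libraries (points), with the mean and SD beside them, each axis starting at 0. Tfrc and Steap3 sit about 2-fold higher in FR, Slc11a2 and Aco1 lower, and only the Slc40a1 points of the groups overlap.

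Tfrc (ENSMUSG00000022797) encodes transferrin receptor 1, the main route of iron entry. It stood at 173, 176 and 166 CPM in WT and at 352, 347 and 353 CPM in FR. Every FR library was far above every WT library, and the FR libraries had an SD of 3.26 CPM. The log2 fold change was 1.03 ± 0.03 (SE, n = 3 each; edgeR adjusted p = 5.61e-23), a 2.04-fold rise, higher in 3 of 3 FR libraries. Tfrc was the 1 member called with at least a 2-fold change, as were 18.8% of all tested genes in either direction, and its log2 fold change was above that of 92.7% of them.

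Steap3 (ENSMUSG00000026389), the endosomal ferrireductase, had 63.2, 63.8 and 67.9 CPM in WT and 126, 127 and 127 CPM in FR. The groups were widely separated, as for Tfrc. The log2 fold change was 0.97 ± 0.04 (SE, n = 3 each; edgeR adjusted p = 7.15e-20), or 1.95-fold.

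Slc11a2 (ENSMUSG00000023030) encodes DMT1, the divalent metal transporter that passes ferrous iron out of the endosome. It had 93.2, 93.5 and 98.1 CPM in WT and 69.2, 70.8 and 69.8 CPM in FR. All FR libraries were below all WT libraries, and the gene was 26.3% lower (log2 fold change −0.44 ± 0.04 SE, n = 3 each; edgeR adjusted p = 8.55e-12). The counts are per gene, so the transcripts with and without the hairpin shown above were not measured apart. Tfrc and Slc11a2, which both have a hairpin pattern after the stop codon (for Slc11a2 in 1 of its transcripts), thus moved in opposite directions.

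Fth1 (ENSMUSG00000024661), the ferritin heavy chain that oxidises iron for storage, had 2027, 2080.4 and 2112 CPM in WT and 2529, 2612 and 2557 CPM in FR. The groups did not overlap, and Fth1 rose by 23.8% (log2 fold change 0.31 ± 0.02 SE, n = 3 each; edgeR adjusted p = 8.45e-13). Ftl1 (ENSMUSG00000050708), the light chain that helps build the iron core, had 2183, 2272 and 2284 CPM in WT and 2384, 2496 and 2379.8 CPM in FR. Its lowest FR library was above its highest WT library, with a gap smaller than for Fth1. The rise of 7.72% (log2 fold change 0.11 ± 0.02 SE, n = 3 each; edgeR adjusted p = 0.000260) was above the change of 58.7% of all tested genes. Without WT replicate 1 its log2 fold change was 0.07 (edgeR adjusted p = 0.0139).

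Ferritin genes have processed pseudogenes, and the reads of near-identical copies are shared out by estimation. Pseudogene rows were found by their gene symbol, so copies filed under other names are not included. Of 6 heavy chain pseudogene rows 2 held any counts, and they took at most 0.00554% of the counts of Fth1 and these rows. Fthl17-ps1, Fthl17-ps2 and Fthl17-ps3, which are among the 6, are named after Fthl17 and held no counts. Of 3 light chain pseudogene rows 2 held counts. They took 0.141 to 0.175% of the light chain counts in WT and 0.218 to 0.264% in FR, nearly all in Ftl1-ps1.

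Slc40a1 (ENSMUSG00000025993), which encodes ferroportin, the iron exporter of animal cells, had 39, 37 and 29 counts in WT and 22, 18 and 19 counts in FR. This was 1.43, 1.44 and 1.13 CPM in WT and 1.14, 0.719 and 0.897 CPM in FR, with the lowest WT library just under the highest FR library. The log2 fold change was −0.55 ± 0.30 (SE, n = 3 each; edgeR adjusted p = 0.105), with a 95% interval from −1.17 to 0.07. A 2-fold fall and no change both lie in that interval, so a difference was not detectable at this depth.

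Ireb2 (ENSMUSG00000032293) encodes iron regulatory protein 2, which is degraded when iron is plentiful. It had 100, 103 and 99.6 CPM in WT and 123, 123 and 125 CPM in FR, with no overlap. The rise was 22.7% (log2 fold change 0.30 ± 0.03 SE, n = 3 each; edgeR adjusted p = 3.51e-09). Aco1 (ENSMUSG00000028405) encodes cytosolic aconitase, which becomes iron regulatory protein 1 when it lacks its iron-sulfur cluster. It had 85.5, 83.5 and 83.7 CPM in WT and 79.1, 76.3 and 76.2 CPM in FR. The groups did not overlap, but the fall was only 8.44% (log2 fold change −0.13 ± 0.04 SE, n = 3 each; edgeR adjusted p = 0.00233).

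**Figure D3:**
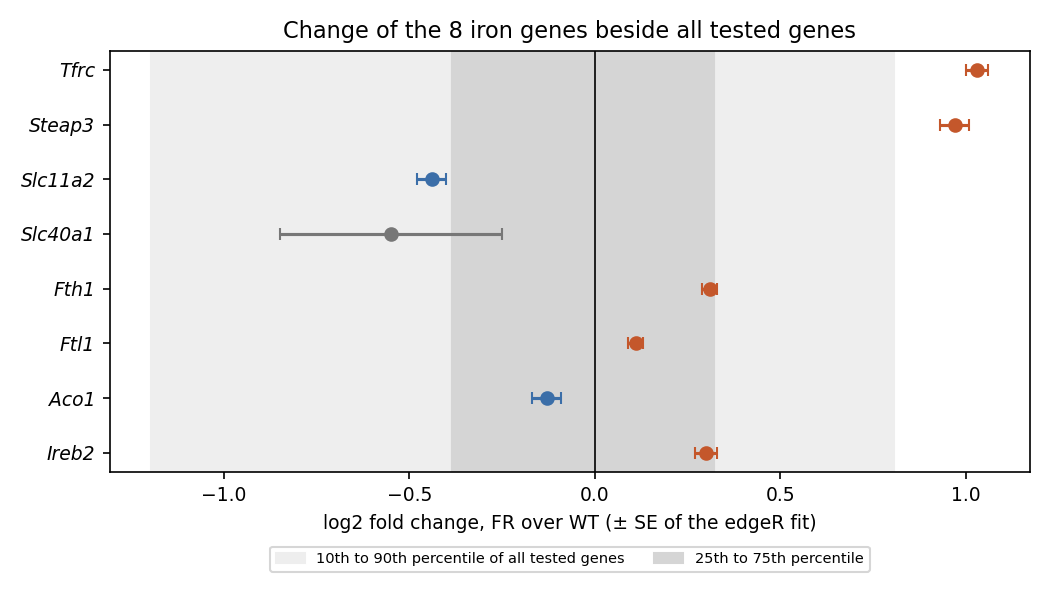
Log2 fold change of FR over WT for the 8 genes with the SE of the edgeR fit, over bands that hold the middle of all 14889 tested genes (25th to 75th percentile from −0.38 to 0.32, 10th to 90th from −1.20 to 0.81). Tfrc and Steap3 lie above the wide band, while Fth1, Ftl1, Ireb2 and Aco1 lie within the narrow one.

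Levels of different genes were compared as TPM, a share of all length-scaled counts in a library, from the counts and the deposited gene length. Of the 8, the ferritin genes were by far the most abundant. In WT, Ftl1 stood at 4676 ± 67.5 TPM and Fth1 at 4496 ± 47.7 TPM (SD, n = 3), ranks 14 and 16 among all rows of the table. In FR the order was turned, with Fth1 at 5337 ± 28.3 TPM and Ftl1 at 4830.1 ± 88.9 TPM (SD, n = 3). Neither pair of ranges overlapped.

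The other members were far below ferritin. In WT they ran from Tfrc (70.8 ± 2.55 TPM) through Slc11a2 (63.2 ± 1.44), Steap3 (45.5 ± 1.46), Aco1 (44.3 ± 1.04) and Ireb2 (35.2 ± 0.659) to Slc40a1 (0.797 ± 0.109; SD, n = 3 each). Steap3 and Aco1 overlapped in WT, and no other neighbours did. In FR the order was Tfrc (139 ± 2.73 TPM), Steap3 (85.4 ± 0.728), Slc11a2 (44.7 ± 0.104), Ireb2 (41.5 ± 0.769), Aco1 (38.9 ± 1.26) and Slc40a1 (0.528 ± 0.128; SD, n = 3 each), with no overlap between neighbours. Steap3 thus passed Slc11a2 and Ireb2 passed Aco1, though by counts without length Ireb2 was above Aco1 in every library. The deposited length of each member equals that of 1 GENCODE transcript, for Slc11a2 the one without the hairpin. An alternative added after seeing the data used the longest GENCODE transcript as the length. Slc11a2 was then at 43.3 TPM in WT and 30.6 in FR, Steap3 at 25.4 and 47.5, and Fth1 at 2795 and 3319. Steap3 was still below Slc11a2 in WT and above it in FR. Fth1 was then below Ftl1 in FR too (4830.1 TPM), so the turned order of the ferritin genes rests on the length used. Slc11a2 was then below Aco1 in both groups, and Steap3 below Ireb2 in WT.

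**Figure D4:**
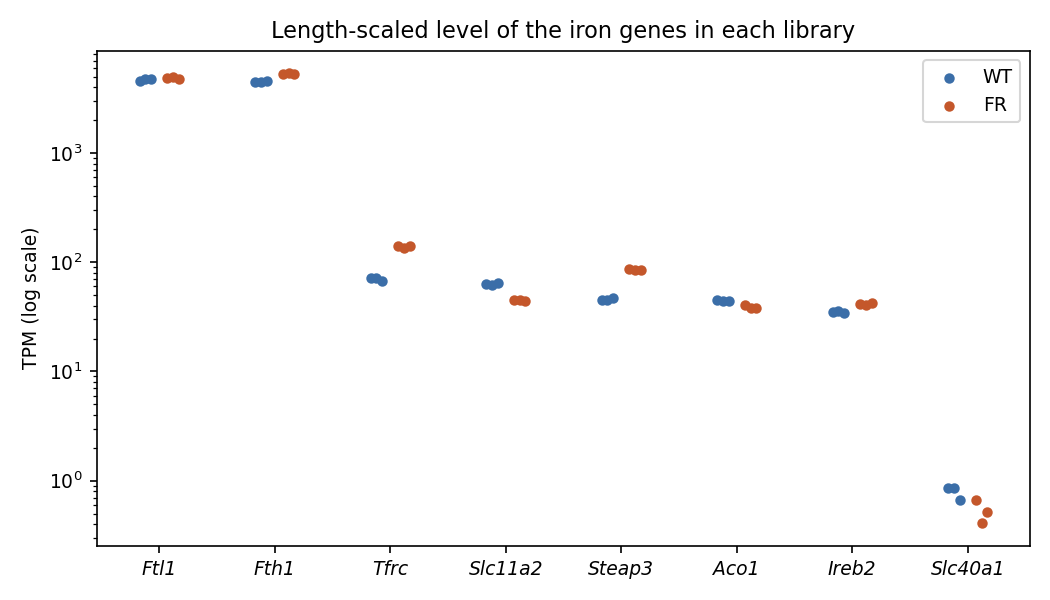
TPM of the 8 genes in each library on a log axis, WT and FR side by side, ordered by the WT mean. The ferritin genes lie between 4449 and 5369 TPM, Slc40a1 below 1 TPM, and the other 5 genes between 34.5 and 141 TPM.

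Ratios within a library do not depend on how libraries are scaled. The ratio of Fth1 to Ftl1, per length, was 0.968, 0.954 and 0.963 in WT and 1.11, 1.09 and 1.12 in FR, a change of 1.15-fold towards the heavy chain. The ratio of Aco1 to Ireb2 was 1.29, 1.22 and 1.27 in WT and 0.966, 0.937 and 0.915 in FR. Per length, Aco1 was thus the higher of the pair in each WT library and Ireb2 in each FR library. By counts without length, Ireb2 was above Aco1 in every library of both groups, so this crossing rests on the lengths used. Tfrc to Fth1 went from 0.0162, 0.0161 and 0.0149 to 0.0265, 0.0253 and 0.0263, a 1.65-fold change. Tfrc to Slc40a1 went from 83.6, 84.6 and 101 to 212, 333 and 271, a 2.99-fold change that rests on the few Slc40a1 counts. None of the 4 ratios overlapped between the groups. Each had an exact two-sided permutation p of 0.1 (0.1 after Benjamini-Hochberg adjustment over the 4), which is the smallest that 3 against 3 libraries can give. Ratios of other gene pairs were not computed for comparison. Among single tested genes, 72.4% did not overlap in CPM between the groups.

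The profiles nearest to Tfrc, by Euclidean distance over the 6 libraries of log2 CPM centred on the WT mean, were Agrn (distance 0.0522), Osbpl9 (0.0666) and Chka (0.0687), with log2 fold changes of 1.00 ± 0.03, 1.04 ± 0.03 and 1.00 ± 0.03 SE. Nearest to Slc40a1 were Zfp729a, Dhx34 and Armcx5, at larger distances of 0.261 to 0.268. Their log2 fold changes were −0.40 ± 0.13, −0.59 ± 0.08 and −0.52 ± 0.16 SE, and each was called lower, unlike Slc40a1. The distance includes the change between the groups, so similar fold changes follow from the choice of neighbours.

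Other genes of iron handling were taken from 10 lists. Outside the 8 members, 88 rows were tested. Of these 38 rose and 25 fell, which is 71.6% called beside 70.1% of all genes. Their median log2 fold change was 0.08. The lists are described by counts only, without a test of a list. Each count below is to be read beside all tested genes, of which 34.6% were higher and 35.5% lower.

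In the list for transferrin iron uptake, 2 of 12 tested genes rose, both of them members (Tfrc and Steap3), and 6 fell (median −0.19). Scara5, a scavenger receptor that takes up ferritin, showed the largest fitted change of any tested gene in the 10 lists. It had 35.3, 32.4 and 34.2 CPM in WT and 0.623, 0.479 and 0.803 CPM in FR, where 12, 12 and 17 counts remained (log2 fold change −5.75 ± 0.13 SE, n = 3 each; edgeR adjusted p = 2.59e-25). Hfe, whose protein binds the transferrin receptor, fell from 5.30 ± 0.445 to 1.49 ± 0.568 CPM. Steap2, a relative of Steap3, fell from 134 ± 2.59 to 105 ± 1.03 CPM (mean ± SD, n = 3 each), in the direction opposite to Steap3. Mcoln1, an endolysosomal cation channel, was at 43.7 ± 1.76 CPM in WT and 43.8 ± 1.67 CPM in FR (SD, n = 3 each; edgeR adjusted p = 0.976). Trf, which encodes transferrin itself, was at 0.731 and 1.01 CPM (means of 3; edgeR adjusted p = 0.262).

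Of 4 tested genes for import without transferrin, 2 rose and 2 fell (median −0.10). Slc39a14, a zinc and iron importer, fell from 61.0 ± 1.92 to 34.8 ± 1.36 CPM (mean ± SD, n = 3 each; log2 fold change −0.81 ± 0.05 SE). Lcn2, a protein that captures iron-loaded siderophores, rose from 12, 14 and 15 counts to 38, 48 and 53 counts, or 0.523 ± 0.0749 to 2.13 ± 0.323 CPM (mean ± SD, n = 3 each). Its receptor gene Slc22a17 had 59, 53.07 and 56.01 counts in WT and 0, 3 and 3.98 counts in FR. At those counts its fall (log2 fold change −4.26 ± 0.45 SE; edgeR adjusted p = 1.11e-09) is poorly determined in size.

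Of 8 tested genes for storage, iron chaperones and ferritin turnover, 6 rose and 1 fell (median 0.11), the 2 ferritin genes among the rises. Among all tested genes, 34.6% were higher and 35.5% lower. Ncoa4, the receptor that delivers ferritin to lysosomes for iron release, rose from 144 ± 1.10 to 247 ± 3.57 CPM (mean ± SD, n = 3 each; log2 fold change 0.78 ± 0.03 SE; edgeR adjusted p = 4.98e-20). This was a larger rise than that of Fth1 (0.31 ± 0.02) or Ftl1 (0.11 ± 0.02), though the difference between genes was not tested. Glrx3, a glutaredoxin of iron trafficking, rose from 155 ± 2.27 to 195 ± 4.28 CPM, and Herc2, a ubiquitin ligase, fell from 153 ± 5.30 to 132 ± 2.49 CPM (mean ± SD, n = 3 each).

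Of 5 tested genes for export and hepcidin control, 2 rose and 2 fell (median −0.20), and Slc40a1 was the 1 not called. Cp, which encodes the ferroxidase ceruloplasmin that works with ferroportin, fell from 58.3 ± 1.07 to 39.3 ± 2.34 CPM. Neo1, a receptor for a hepcidin regulator, rose from 123 ± 2.11 to 168 ± 1.63 CPM, and Nedd4l, a ubiquitin ligase, from 40.3 ± 0.903 to 52.6 ± 5.14 CPM (mean ± SD, n = 3 each). Hamp, the hepcidin gene, had 1 count in all 6 libraries together and could not be tested.

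In the list for the iron regulatory proteins and their control 4 of 6 rose and 1 fell (median 0.09). Rbx1 rose from 78.1 ± 4.31 to 96.6 ± 4.26 CPM. Fbxl5, the iron-sensing subunit of the ligase that marks iron regulatory protein 2 for degradation, rose from 74.1 ± 2.01 to 79.9 ± 2.42 CPM, and the scaffold gene Cul1 from 160 ± 1.41 to 168 ± 1.01 CPM (mean ± SD, n = 3 each). The last 2 changes were small (log2 fold change 0.11 ± 0.04 and 0.07 ± 0.03 SE; edgeR adjusted p = 0.0127 and 0.0423).

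Of 6 tested genes whose transcripts are known from other work for an iron-responsive element, 3 rose and 3 fell (median −0.01). Cdc42bpa, a kinase, fell from 138 ± 4.08 to 102 ± 0.731 CPM and Pfn2, an actin-binding profilin, from 115 ± 3.54 to 90.2 ± 1.90 CPM (mean ± SD, n = 3 each).

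Iron-sulfur clusters and haem take up much of the iron that cells use. Of 21 tested genes for mitochondrial iron import and iron-sulfur cluster assembly 9 rose and 4 fell (median 0.12), against 34.6% higher and 35.5% lower among all genes. Hspa9, the mitochondrial chaperone that serves cluster transfer, rose from 956 ± 10.7 to 1131 ± 22.8 CPM, Abcb8, a mitochondrial transporter, from 37.3 ± 1.37 to 51.5 ± 0.881 CPM and Iba57, a late-acting cluster factor, from 6.10 ± 0.133 to 11.9 ± 1.08 CPM, while Bola1 fell from 18.3 ± 1.60 to 11.6 ± 0.656 CPM (mean ± SD, n = 3 each). Slc25a37, which encodes the mitochondrial iron importer mitoferrin-1, was at 101 ± 6.33 and 98.9 ± 3.25 CPM (mean ± SD, n = 3 each; edgeR adjusted p = 0.522). For the cytosolic iron-sulfur list 6 of 14 rows rose and 2 fell (median 0.21). Ciapin1, an electron carrier of that pathway, rose from 36.7 ± 1.46 to 56.8 ± 1.20 CPM and Cisd1 from 53.0 ± 1.63 to 66.3 ± 1.09 CPM, and Cisd2 fell from 60.6 ± 0.512 to 37.3 ± 1.39 CPM (mean ± SD, n = 3 each). Ndor1 filled 3 of the 14 rows, so its reads may be split.

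Of 11 haem synthesis genes 3 rose and 3 fell (median −0.05). Alad, the second enzyme of the pathway, rose from 37.2 ± 0.506 to 57.2 ± 1.79 CPM and the transporter gene Abcb10 from 38.2 ± 1.14 to 54.8 ± 0.798 CPM, while Ppox, the penultimate enzyme, fell from 21.2 ± 0.528 to 10.7 ± 1.13 CPM (mean ± SD, n = 3 each). Of 9 tested genes for haem breakdown and transport 6 rose and 3 fell (median 0.21). Slc48a1, which carries haem out of lysosomes, rose from 139 ± 3.36 to 232 ± 5.27 CPM, Pgrmc1, a haem-binding membrane protein, from 145 ± 3.03 to 216 ± 2.51 CPM and Blvrb, a biliverdin reductase, from 35.5 ± 1.25 to 47.0 ± 3.38 CPM (mean ± SD, n = 3 each). Slc46a1, a folate and haem carrier, fell from 6.44 ± 0.946 to 3.63 ± 0.304 CPM. Hmox1, the inducible haem oxygenase that releases iron from haem, was named after its values were seen and fell from 47.2 ± 1.75 to 40.8 ± 2.15 CPM (mean ± SD, n = 3 each; edgeR adjusted p = 0.000325).

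**Figure D5:**
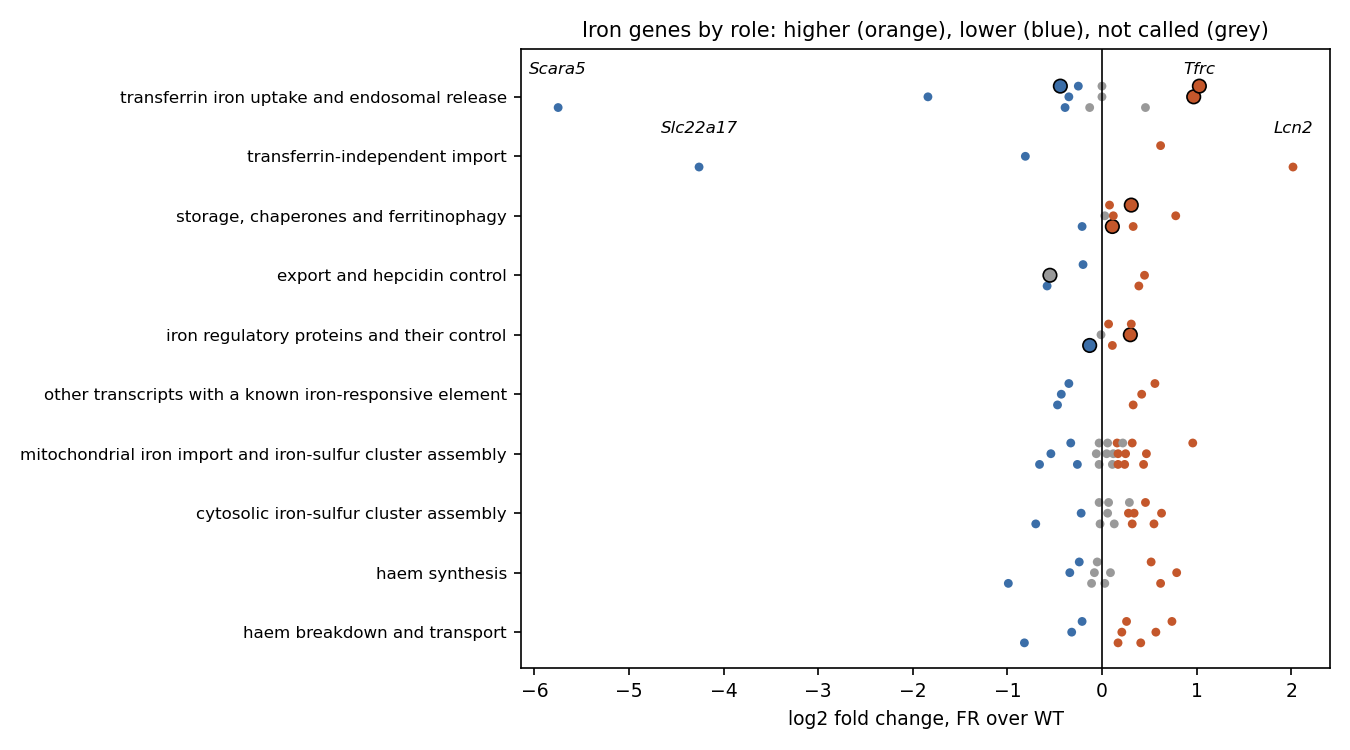
Log2 fold change of FR over WT for the tested genes of the 10 iron lists, 1 line per list, with the vertical scatter only for visibility. Large outlined points are the 8 members, and Scara5, at −5.75, lies farthest from 0.

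The libraries held 19246119 to 27140662 counts, and 3 counts in a library corresponded to 0.111 to 0.156 CPM, counting error only. Of 8 osteoblast lineage markers, Runx2, Spp1, Col1a1 and Col1a2 could be tested and all fell. The summed level of the 8 went from between 15643 and 15943 CPM in WT to between 4155 and 4203 CPM in FR. That sum is mainly Col1a2 (mean 9282 CPM in WT and 3104 in FR), Col1a1 (5055 and 635) and Spp1 (1392 and 384). Runx2 fell much less, from 69.8 to 57.2 CPM (log2 fold change −0.29 ± 0.04 SE). The other markers, Sp7, Alpl, Bglap and Ibsp, were at or near 0 in both groups. Among markers of cells that handle much iron, the 8 erythroid genes summed to at most 0.945 CPM in any library, with Hbb-bs and Hbb-bt at 0 throughout. The 7 macrophage genes summed to 10.8 to 12.4 CPM in WT and 10.6 to 12.6 CPM in FR. Of these, Csf1r (0.587 to 7.14 CPM) and Cd68 (0.467 to 2.26 CPM) were higher and Cd163 (4.43 to 0.351 CPM) and Lyz2 (6.15 to 1.54 CPM) lower in FR, while the defining genes Adgre1 and Ptprc had at most 1 and 5 counts in a library. The 5 hepatocyte genes summed to 4.85 to 6.87 CPM in WT and 5.11 to 5.71 CPM in FR with none called, and the 5 endothelial genes to 3.30 to 3.82 and 2.12 to 2.44 CPM with 1 called, lower. The part of these marker changes in the iron gene results was not tested.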

How the data were processed

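Poly(A) RNA of 6 MC3T3-E1 libraries was sequenced as paired-end reads, per the labels' protocols. Per the submitters' processing notes, the authors used fastp, HISAT and RSEM with build GRCm39; settings and annotation are not given in the sources used here. The authors deposited expected counts per gene, not scaled to depth, with a gene length. The kit's strandedness is not stated, so overlapping antisense genes cannot be told apart. The annotation used here is of GRCm38, so no genome positions are given.

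Expected counts were rounded, filtered with filterByExpr and compared by the robust quasi-likelihood test of edgeR 4.0.16 (R 4.3.3, TMM factors, no block, Benjamini-Hochberg adjustment over 14889 genes, threshold 0.05). The edgeR step was run on simulated counts in which few genes changed. That run did not cover data in which most genes change. Sites were searched in GENCODE M21 transcripts. Alternatives included DESeq2 1.42.0 and limma-voom (limma 3.58.1).

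The members and lists were chosen with earlier results of these data known. Named genes are the 8 members, the 3 non-members of smallest adjusted p per list with the strongest called gene of the other direction where those 3 share a sign, and the 3 nearest profiles to Tfrc and Slc40a1 with a mean of at least 5 CPM. Of the genes that this rule takes, 1 is not reported here. Genes named outside that rule, chosen after their values were seen, are Mcoln1, Trf, Slc25a37, Hamp, Hmox1, Ndor1 and the ferritin pseudogenes. Figures were drawn with matplotlib 3.10.9.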

Additional observations from a re-analysis of the deposited data

How the results depend on the processing

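Each of the 16 alternatives gave 7 of the 8 members called, 5 higher and 2 lower, with every member on its side of the threshold and in its direction. Other scalings, filters and tests gave log2 fold changes of 1.01 to 1.03 for Tfrc, 0.94 to 0.97 for Steap3, −0.46 to −0.44 for Slc11a2, 0.28 to 0.31 for Fth1, 0.08 to 0.11 for Ftl1, 0.27 to 0.30 for Ireb2 and −0.15 to −0.13 for Aco1. The other scalings, median-of-ratios and library size alone, shifted log2 fold changes by a median of only −0.002 and −0.005. Each scaling takes the bulk of genes or the total counts as equal between groups, though 70.1% of tested genes were called. A shift shared by all genes was not tested, so the small changes of Ftl1 and Aco1 rest on the scaling. Leaving out 1 library at a time gave at most an adjusted p of 0.0139 for Ftl1 and 0.0109 for Aco1 with edgeR. Slc40a1 ranged from −0.74 (without FR replicate 1, edgeR adjusted p = 0.0573) to −0.40 (without FR replicate 2, adjusted p = 0.300), so its few counts limit it. Called genes of the wider lists numbered 58 to 64 and of all genes 9518 to 10931. The change in the log2 ratio of Tfrc to Slc40a1 was 1.42 to 1.75 without single libraries (main 1.58), and summing ferritin pseudogenes left that of Fth1 to Ftl1 at 0.20. Same-numbered libraries showed no shared deviation (r = −0.0166, −0.0039 and −0.028). This cannot show whether they were handled together, which no label states. With the replicate block 7 members, 61 genes of the wider lists and 10292 of all genes were called.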
